A study of Aspergillus nidulans FGSC A4 with 21 samples.

Results

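The genes described here are the 92 *A. nidulans* genes, of 2403 in the deposited tables, whose gene description contains the words "transcription factor". A total of 96 descriptions contained the words, and 4 genes were left out because the description also named farnesol, a transporter, a permease or sterigmatocystin, or because the gene was *alcR*. Fungal transcription factors are DNA-binding proteins that switch genes on or off, often within a single pathway such as the use of one sugar or the making of one metabolite. The largest family in filamentous fungi carries a zinc binuclear cluster, a fold in which cysteines hold zinc ions. Other families carry C2H2 zinc fingers, GATA-type zinc fingers or a basic helix-loop-helix, and several of their best studied *Aspergillus* members act in carbon use, in the response to ambient pH and in sexual and asexual development.

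The study asked how strain FGSC A4 responded at the RNA level to benzo[*a*]pyrene (BaP), a polycyclic aromatic hydrocarbon. Hyphal pellets grown for 18 h with 1% glucose were moved to minimal medium with 0.1% glucose and given 200 µM BaP in DMSO (BaP-treated cells) or an equal volume of DMSO (controls). Poly(A) RNA was sequenced after 6, 24 and 48 h, with 3 libraries for each treatment and time point and 18 in all. Every group shared the strain, the transfer to low glucose and the solvent. It was not stated whether the 3 libraries of a group came from separate cultures, so the tests measured the spread between these libraries, and in bulk hyphae fewer cells of a type and less RNA per cell cannot be told apart.

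The tables held only genes that the authors had called differentially expressed at a time point, so each of the 92 genes was present because of these same libraries, and absence from a table gives no level. For that reason the tests below describe the size and spread of each difference and are not independent evidence that it exists. Levels are in RPKM, reads normalised to transcript length and to library size. A gene was counted as past the threshold where its log2 fold change, BaP over DMSO on the log2(RPKM + 1) scale, was beyond 1 in either direction with an adjusted p under 0.05 (limma, Benjamini-Hochberg over the table). The paper gives the same fold limit for its own calls. Adding 1 to the RPKM shrinks the differences of genes at low levels. A gene inside the limit here was therefore not necessarily inside that of the authors. Log2 fold changes are given ± SE and mean levels ± SD (n = 3 each). Library sizes worked out from the RPKM steps were 5.97 M to 13.7 M reads, and each of the BaP libraries held fewer reads than any control at 6 h and 48 h. All these sizes lie below the number of reads per sample that the paper reports, and the reason was not worked out. The median transcription factor gene had 340, 281 and 300 reads at 6, 24 and 48 h in its higher group, and the lowest had 10 reads, so the weakest genes rest on few reads. By description, 57 of the 92 genes were known from a predicted zinc ion binding domain, 10 were named zinc cluster genes, 8 had only a predicted role in secondary metabolism, and 7 were otherwise predicted. The rest were the C2H2 genes *pacC*, *mtfA* and *aslA*, the zinc finger genes *nsdD* and *lreB*, the helix-loop-helix gene *devR*, and 2 genes whose descriptions named RNA polymerase I or III. The words also brought in *palA* and *palF*, which encode proteins that signal to PacC and are not transcription factors themselves.

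At 6 h most listed transcription factor genes were higher in BaP-treated cells, and at 24 and 48 h most were lower. Of 24 genes listed at 6 h, 16 were higher and 8 lower (all listed genes: 76.1% and 23.9%). The 62 genes listed at 24 h divided into 14 higher and 48 lower (all: 49.8% and 50.2%), and the 58 genes listed at 48 h into 10 higher and 48 lower (all: 49.4% and 50.6%). The threshold was passed by 13 genes at 6 h (54.2%), 38 at 24 h (61.3%) and 46 at 48 h (79.3%), beside 74%, 74.1% and 83.9% of all listed genes. The median control level of the transcription factor genes was 6.86, 9.57 and 13.8 RPKM, beside 13.3, 17.1 and 21 RPKM for all listed genes. The scale shrinks the differences of low genes, and whether that accounts for the lower shares was not tested. The genes that rose past it numbered 10 at 6 h, 7 at 24 h and 9 at 48 h, and those that fell 3, 31 and 37. Risers made up 41.7%, 11.3% and 15.5% of the listed transcription factor genes at the 3 times, beside 63.6%, 41.5% and 40.9% of all listed genes. Fallers made up 12.5%, 50% and 63.8%, beside 10.4%, 32.6% and 43%. The excess of lower values at 24 and 48 h thus stood beside a nearly even split in the whole tables, and the contrast between the 2 was not tested. The median log2 fold change of the listed transcription factor genes was 0.97 at 6 h, -1.0 at 24 h and -1.10 at 48 h, and that of all listed genes was 1.13, -0.19 and -0.56. The all-gene median at 24 h lies between the 2 directions and depended on the setting: it was -0.81 with a pseudocount of 0.1, -0.99 by voom and 0.46 with genes under 1 RPKM left out, beside -1.22, -1.24 and -1.03 for the transcription factor genes.

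**Figure D1:**
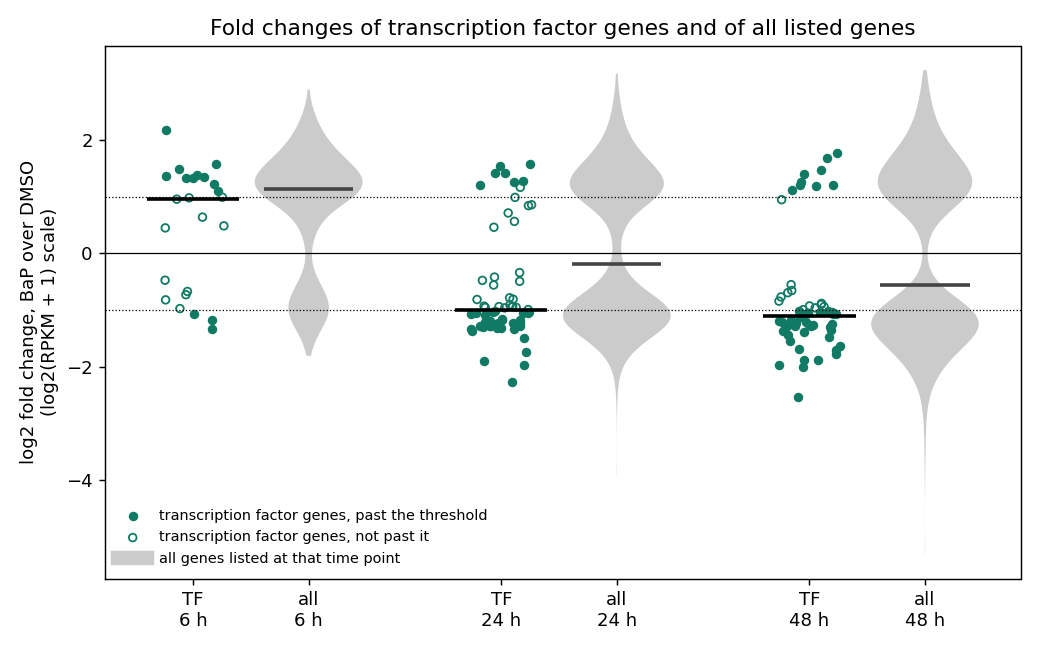
Log2 fold change (BaP over DMSO, log2(RPKM + 1) scale, vertical axis) of each transcription factor gene (TF, points; filled past the threshold, open not past it) and of all genes listed (all, grey shapes) at 6, 24 and 48 h, with the median as a bar and the fold limit as dotted lines. The median of the transcription factor genes lay at 0.97, -1.0 and -1.10 and that of all listed genes at 1.13, -0.19 and -0.56.

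The BaP and control libraries were without overlap in every gene listed at 6 h (24 genes; 99.3% of all listed genes) and at 24 h (62 genes; 93.7% of all). At 48 h they were without overlap in 57 genes (99.7% of all). The exception at 48 h was *AN8590*, with 59, 58 and 31.7 RPKM in BaP-treated cells, against 14.7, 17.7 and 32.9 RPKM in controls. Some libraries stood apart. At 24 h, DMSO library 2 was the control nearest the BaP mean for 53 of 62 transcription factor genes (85.5%, against 81.4% of all genes). BaP library 2 was the BaP library nearest the controls for 50 of 62 (80.6%, against 79.6% of all genes). At 48 h, DMSO library 3 was nearest for 53 of 58 (91.4%, against 89.1% of all genes). At 6 h DMSO library 2 was nearest for 19 of 24 (79.2%, against 69.1% of all genes). Libraries are numbered here in the order of the table columns, which carry no replicate numbers. With any one of BaP library 1, BaP library 3 or DMSO library 1 left out, no transcription factor gene passed the limma threshold at 24 h (43 to 44 had an unadjusted p under 0.05, and 61 passed by voom with all libraries), and none of the 38 calls held in more than 3 of the 6 fits with a library left out. At 6 h 11 of 13 calls, and at 48 h 33 of 46, held in 6 of 6 such fits; the 6-h exceptions were *AN3506* and *AN10151*, which held in 5. Over all listed genes 417 of 520 calls (6 h), 1 of 1114 (24 h) and 940 of 1283 (48 h) held in 6 of 6, shares close to those of the transcription factor genes. The 24-h calls were the weakest of the 3 sets, with adjusted p between 0.0155 and 0.0356 by limma.

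Time points shared few genes early and many genes late. Of the 92 genes, 11 were listed at 6 h alone, 13 at 24 h alone and 18 at 48 h alone. A further 10 were listed at 6 and 24 h, 37 at 24 and 48 h, 1 at 6 and 48 h and 2 at all 3. Each gene listed at more than one time point kept its direction: the 12 listed at 6 and 24 h, the 39 listed at 24 and 48 h and the 3 listed at 6 and 48 h. Over all genes, 374 of 374, 915 of 915 and 236 of 241 did so. Of the 39 genes listed at 24 and 48 h, 34 were lower and 5 higher in BaP-treated cells at both, and 24 fell and 4 rose past the threshold at both. The same split was not worked out for the 915 genes listed at both times, so these counts have no direct background. At each time taken alone, 50.2% (24 h) and 50.6% (48 h) of all listed genes were lower. The size of the difference was larger at 48 h for 28 of these 39 and for 72.1% of all genes listed at both. No transcription factor gene listed at both times of a pair had a BaP effect that differed between them by the limma interaction contrast. The lowest adjusted p was 0.996 for 24 h against 6 h (12 genes), 0.9998 for 48 h against 24 h (39 genes) and 0.915 for 48 h against 6 h (3 genes), and 0 of these genes had an unadjusted p under 0.05. Among all genes, 0 of 374, 0 of 915 and 3 of 241 (1.24%) differed. The contrast could be run only on genes already called at both times. It therefore left out the 11, 13 and 18 genes listed at 1 time point alone, and does not show that BaP effects were stable. Without DMSO library 3 of 48 h, *AN3506* alone of the transcription factor genes passed for 48 h against 6 h.

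**Figure D2:**
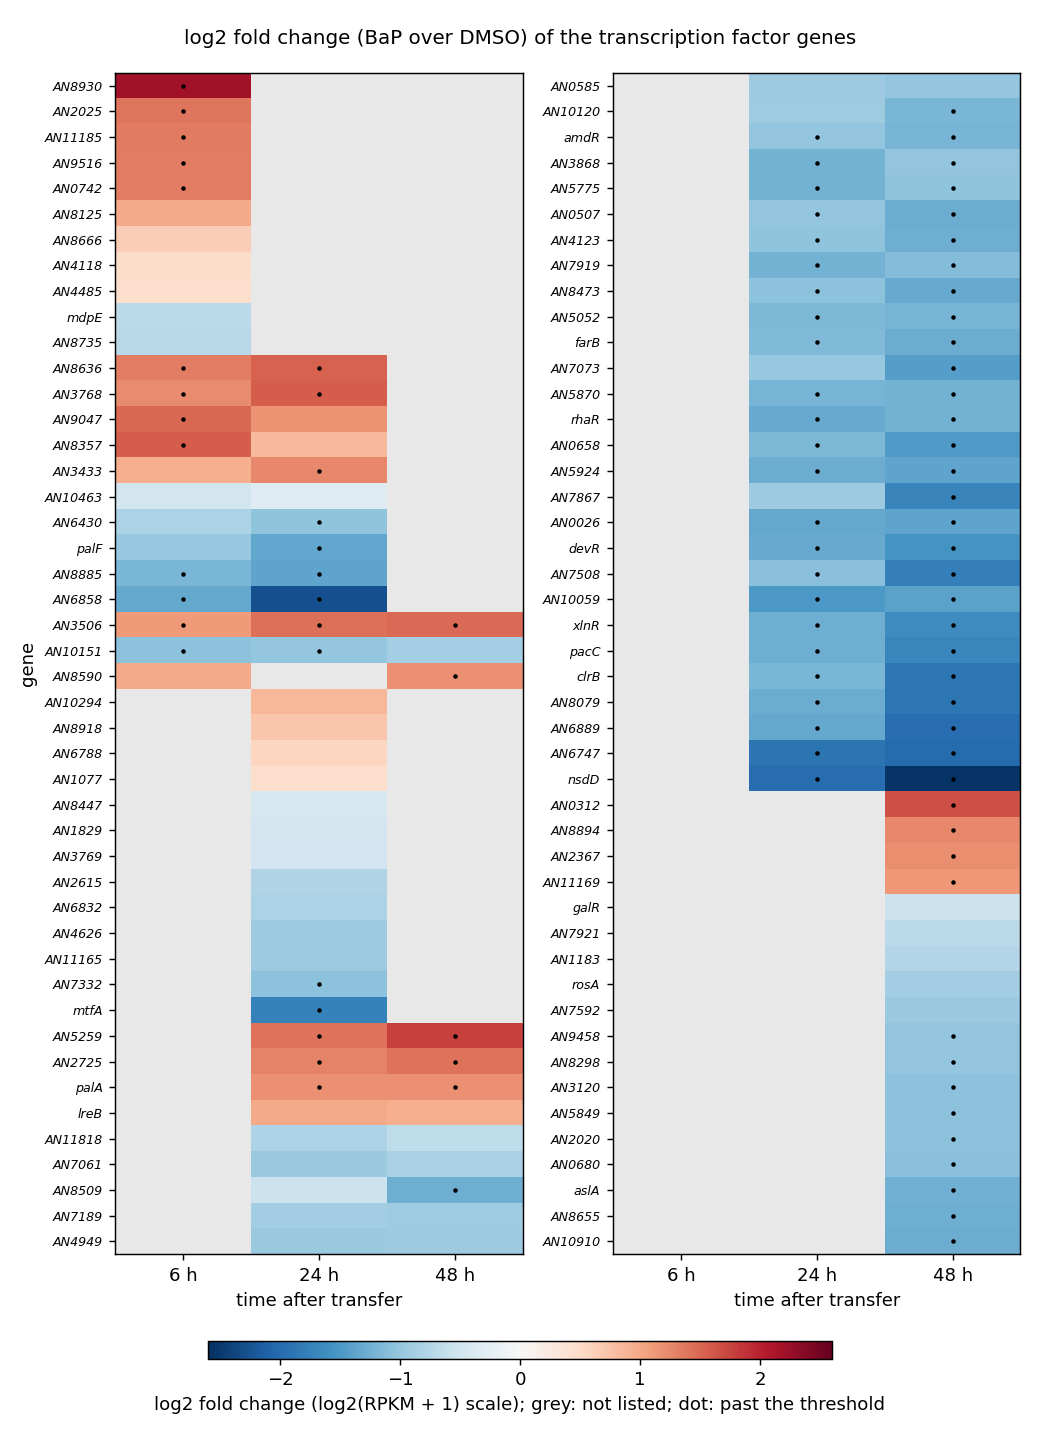
Log2 fold change (BaP over DMSO) of the 92 transcription factor genes (rows, ordered by the time points at which they were listed) at 6, 24 and 48 h (columns), from blue (lower in BaP-treated cells) to red (higher). Grey cells are time points at which a gene was not listed, and dots mark genes past the threshold. The 37 genes listed at 24 and 48 h form the largest block, most of it blue.

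At 6 h the genes that rose were mostly unnamed. The largest difference was in *AN8930*, a predicted zinc-binding transcription factor gene on chromosome VII, 395155 to 397650 (coordinates as in the tables, whose genome build is not given in the sources used here). It had 204, 185 and 161 RPKM in BaP-treated cells, against 28.2, 59.3 and 36.8 RPKM in controls, with a log2 fold change of 2.18 ± 0.22 and an adjusted p of 1.12e-07. The 3 BaP libraries lay well above the 3 controls, of which DMSO library 2 was the highest. *AN8357* had 19.8, 25.3 and 21.9 RPKM in BaP-treated cells, against 7.35, 6.44 and 6.5 RPKM in controls (log2 fold change 1.58 ± 0.16). *AN9047* had 29.7, 33.3 and 29.2 RPKM in BaP-treated cells, against 9.44, 11.5 and 9.99 RPKM in controls (log2 fold change 1.49 ± 0.16). Both were tight within each treatment. The most abundant riser was *AN8636* (chromosome III, 3301727 to 3304461), with 293, 312 and 277 RPKM in BaP-treated cells, against 101, 140.5 and 109.8 RPKM in controls and a log2 fold change of 1.34 ± 0.17, adjusted p 1.13e-06. It is again known only by its predicted domains. *AN2025*, one of the genes with a predicted role in secondary metabolism, averaged 12.7 ± 1.0 RPKM with BaP and 4.32 ± 1.05 RPKM with DMSO. Also past the threshold were *AN11185*, *AN9516*, *AN0742*, *AN3768* and *AN3506*, with log2 fold changes of 1.36, 1.34, 1.32, 1.22 and 1.1. In all 10 genes each BaP library exceeded each control, as the groups were without overlap in 99.3% of all genes listed at 6 h. None of the 10 is a characterised regulator in the descriptions.

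The genes past the threshold that fell at 6 h were *AN6858*, *AN8885* and *AN10151*. *AN6858* (predicted zinc-binding, chromosome I, 3390779 to 3393350) had 23.2, 13.6 and 23.7 RPKM in BaP-treated cells, against 52.6, 49.1 and 50.8 RPKM in controls, a log2 fold change of -1.33 ± 0.19. *AN8885* averaged 4.67 ± 0.992 RPKM with BaP and 11.8 ± 1.39 RPKM with DMSO, and *AN10151*, described as a possible pseudogene of the zinc cluster type, averaged 2.19 ± 0.756 RPKM with BaP and 5.58 ± 0.122 RPKM with DMSO. Among named genes, *palF*, an arrestin-related protein of the pH signalling pathway, had 7.18, 6.78 and 7.29 RPKM in BaP-treated cells, against 15.4, 12.9 and 16.6 RPKM in controls. Its log2 fold change of -0.98 was just inside the limit. *mdpE*, the regulator of the monodictyphenone cluster, had 2.0, 1.12 and 1.26 RPKM in BaP-treated cells, against 2.9, 2.75 and 2.99 RPKM in controls and a log2 fold change of -0.67, short of the threshold. Of its listed cluster genes at 6 h, *mdpB* had a log2 fold change of 0.85 and *mdpL* of -0.60, and neither passed. The 3 genes *AN10463*, *AN4118* and *AN4485* averaged under 1 RPKM in both treatments, with fold changes inside the limit.

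Genes of conidiation, meaning genes of conidia (the asexual spores) and of the structures that bear them, were also listed. Of 20 conidiation genes in a hand-written list, 10 were in the 6-h table and 7 rose (*catA*, *conJ*, *conF*, *rodA*, *yA*, *tpsA* and *treA*), with log2 fold changes of 1.05 to 1.74, where 63.6% of all listed genes rose. Their summed level over the 10 listed genes was 1261 to 1753 RPKM in BaP libraries and 537 to 608 RPKM in controls, and no value was at 0. *abaA*, a regulator of conidiation in the same list, had a log2 fold change of -0.65, not past the threshold. At 24 h *ivoB* was the one conidiation gene listed and fell (85.7 to 232.6 RPKM in BaP libraries and 270.2 to 366.9 RPKM in controls). At 48 h *conF* and *yA* were listed, and *conF* rose with a log2 fold change of 1.95. The genes *catA*, *conJ*, *conF* and *tpsA* also stand in the hand-written target list of the regulator gene *atfA*. Of the *atfA* targets, 5 were in the 6-h table and 5 rose, the other being *gfdB* (log2 fold change 2.03). Whether RNA of conidia or of spore-bearing structures had a part in the 6-h rise of the transcription factor genes was not tested. *AN8636* lies directly beside the conidial catalase gene *catA* and a place further from *cetJ* in the RefSeq gene order, and these rose by 1.70 and 1.42 on the log2 scale at 6 h. *AN8639*, at the third place on that side, rose by 1.76.

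**Figure D3:**
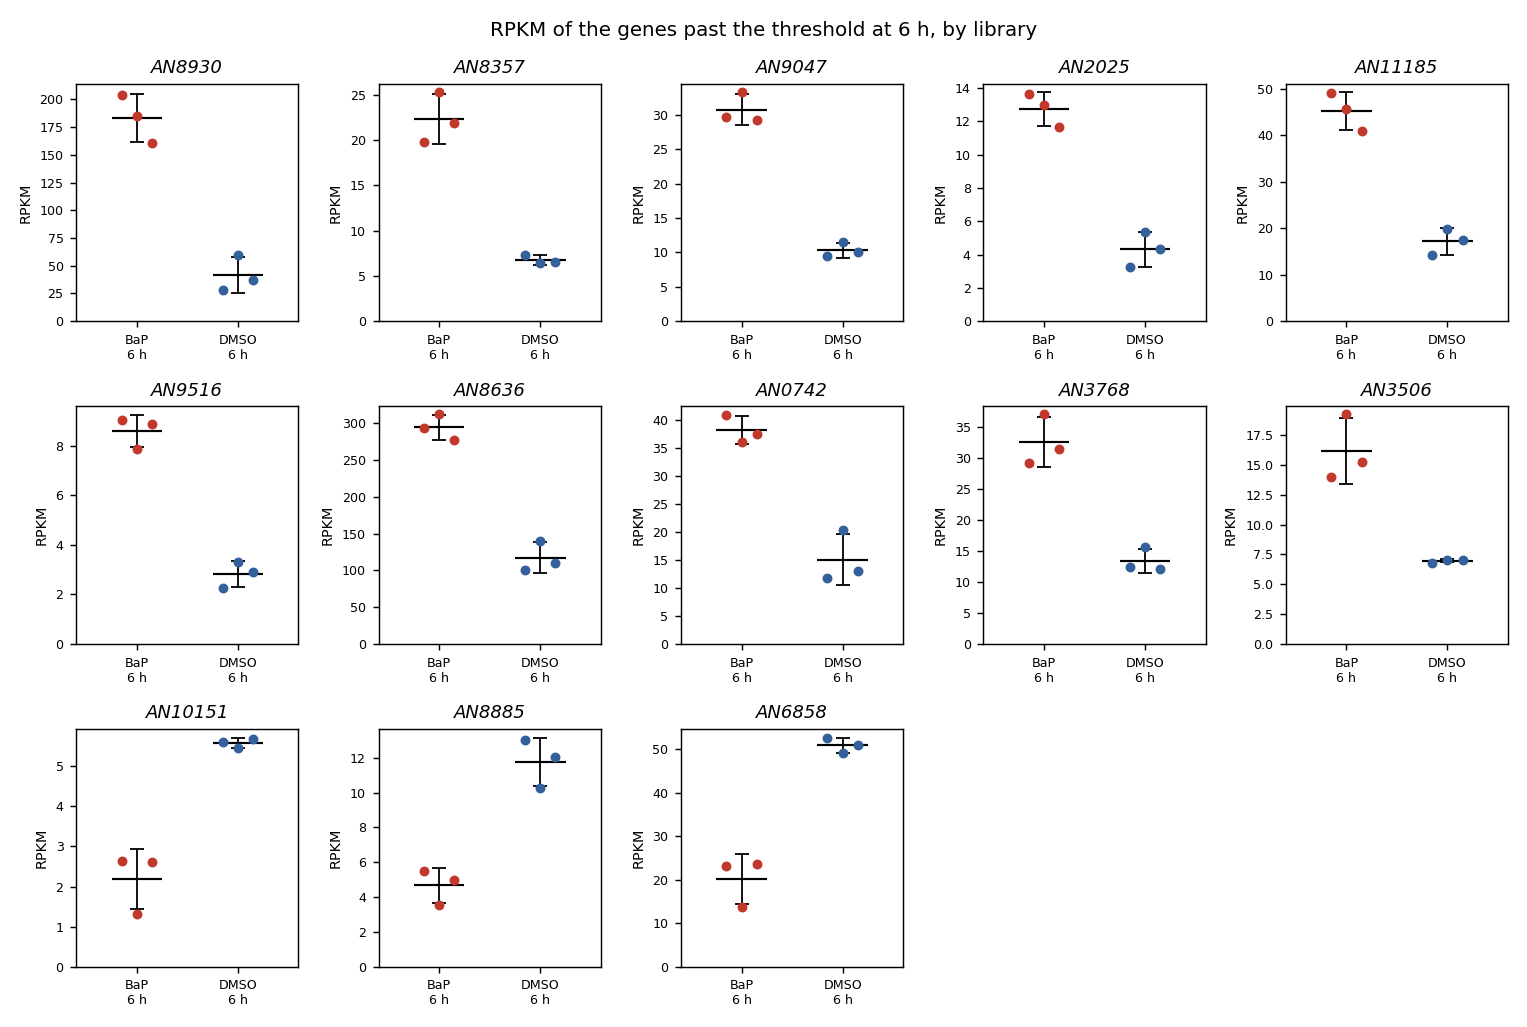
RPKM (vertical axis, from 0) of the 13 transcription factor genes past the threshold at 6 h, in each BaP library (red, left) and each control library (blue, right), with mean and SD as black lines (n = 3 each). The 10 genes of the first panels are higher and *AN10151*, *AN8885* and *AN6858* lower in every BaP library than in every control. The groups were without overlap in 99.3% of all genes listed at 6 h.

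Among the characterised regulators, the largest fall at each of the later times was in the developmental gene *nsdD* (chromosome VI, 1646338 to 1649379). It encodes a GATA-type factor required for sexual development. At 24 h it had 10.8, 36.2 and 17.2 RPKM in BaP-treated cells, against 90.5, 61 and 85.1 RPKM in controls. At 48 h it had 14, 9.22 and 13.8 RPKM in BaP-treated cells, against 99.3, 95.3 and 45.7 RPKM in controls. The log2 fold change was -1.98 ± 0.43 at 24 h (adjusted p 0.0155) and -2.54 ± 0.36 at 48 h (adjusted p 0.00057), the largest fall of any transcription factor gene at 48 h. The control libraries differed among themselves at 48 h, DMSO library 3 being the lowest, but each exceeded every BaP library. *devR*, a helix-loop-helix gene needed for normal conidiophores and for self-fertility, had 23.1, 26.4 and 27.7 RPKM in BaP-treated cells, against 102, 87.4 and 51.2 RPKM in controls at 48 h, a log2 fold change of -1.55 ± 0.33, and at 24 h averaged 28.2 ± 9.81 RPKM with BaP and 70.0 ± 12.4 RPKM with DMSO. *rosA*, a zinc cluster repressor of sexual development, had 1.85, 1.1 and 2.68 RPKM in BaP-treated cells, against 5.33, 4.54 and 3.14 RPKM in controls and a log2 fold change of -0.9 at 48 h, which did not pass. *mtfA*, a C2H2 regulator of secondary metabolism and morphogenesis, was listed at 24 h alone, with 3.29, 3.69 and 5.03 RPKM in BaP-treated cells, against 19.4, 5.44 and 34.1 RPKM in controls. Its controls spread widely, with DMSO library 2 close to the BaP libraries, and its log2 fold change was -1.75 ± 0.58 (adjusted p 0.025). *lreB*, a zinc finger partner in the blue-light response, was the one named regulator on the higher side. It had 16.7, 19.5 and 19 RPKM in BaP-treated cells, against 7.15, 7.68 and 13.4 RPKM in controls at 48 h, and log2 fold changes of 0.99 at 24 h and 0.95 at 48 h, both inside the limit.

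The genes of the ambient pH pathway moved in different directions. PacC is a C2H2 factor that is activated by proteolysis at alkaline pH, and PalA and PalF belong to the signalling chain that leads to that cleavage. *pacC* (chromosome VI, 2592365 to 2595248) had 40.4, 89.7 and 56 RPKM in BaP-treated cells, against 156, 136 and 140.0 RPKM in controls at 24 h. At 48 h it had 68.5, 70.2 and 48.7 RPKM in BaP-treated cells, against 243, 234 and 142 RPKM in controls. Its log2 fold change was -1.28 ± 0.32 at 24 h and -1.69 ± 0.33 at 48 h (adjusted p 0.0157 and 0.00156), and every BaP library was below every control at both times. *palA* went the other way, with 19.3, 14.9 and 21.1 RPKM in BaP-treated cells, against 8.94, 10.3 and 4.27 RPKM in controls at 24 h. At 48 h it had 27.4, 43.4 and 32 RPKM in BaP-treated cells, against 11.1, 12 and 21 RPKM in controls. It rose with a log2 fold change of 1.2 ± 0.34 at 24 h and 1.2 ± 0.34 at 48 h. *palF* fell at 24 h, with 2.32, 4.07 and 2.81 RPKM in BaP-treated cells, against 9.47, 6.12 and 13.1 RPKM in controls and a log2 fold change of -1.34 ± 0.33, and was not listed at 48 h. A hand-written list of PacC targets, not checked against a database, included *palA* and *palF* themselves. At 24 h 1 of 3 listed targets rose (*palA*) and 2 fell (*palF* and *prtA*). At 48 h 1 of 2 rose (*palA*) and 1 fell (*prtA*). Among all listed genes 41.5% rose and 32.6% fell at 24 h, and 40.9% and 43% at 48 h. The alkaline protease gene *prtA*, also in the target list of *xprG*, averaged 14.4 ± 5.06 RPKM with BaP and 34.2 ± 5.88 RPKM with DMSO at 24 h. At 48 h it averaged 17 ± 17.7 RPKM with BaP and 169.6 ± 70.3 RPKM with DMSO (SD, n = 3 each). Its log2 fold changes were -1.24 and -3.60. *AN2367*, a zinc cluster gene whose description says that its expression depends on PalA, had 20.9, 30.5 and 27 RPKM in BaP-treated cells, against 8.4, 9.19 and 15.5 RPKM in controls at 48 h and rose with a log2 fold change of 1.21 ± 0.33.

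Most listed regulators of carbon source use fell at 24 and 48 h, and *amdR* was the only listed regulator of nitrogen and amino acid use. A list of 142 known regulators of *Aspergillus*, written by hand and not checked against a database, held 14 of the 92 genes. These 14 also include regulators of development, of pH and ions and of secondary metabolism. Of the 14, 10 were listed at 24 h, where 9 fell and none rose, and 12 at 48 h, where 9 fell and none rose. The carbon-use regulators in the list, *amyR* included, numbered 5 at 24 h, of which 5 fell, and 6 at 48 h, of which 5 fell. Across all listed genes 32.6% fell at 24 h and 43% at 48 h. *xlnR*, the activator of xylan-degrading enzymes, had 9.77, 22.2 and 13.6 RPKM in BaP-treated cells, against 41.5, 32.6 and 35.3 RPKM in controls at 24 h. The 48-h values were 16.6, 14.1 and 14.3 RPKM in BaP-treated cells, against 56.2, 53.8 and 38.4 RPKM in controls. Its log2 fold changes were -1.28 ± 0.33 and -1.64 ± 0.30. The 48-h libraries were tight in BaP-treated cells and did not overlap the controls. *clrB*, the regulator of cellulose degradation, had 16.6, 13.7 and 8.81 RPKM in BaP-treated cells, against 60.6, 58.5 and 33.8 RPKM in controls at 48 h, a log2 fold change of -1.88 ± 0.35 (adjusted p 0.00135), and averaged 21.4 ± 8.76 RPKM with BaP and 48.3 ± 8.82 RPKM with DMSO at 24 h. *farB*, required for growth on short-chain fatty acids, had 19.3, 18.8 and 17.9 RPKM in BaP-treated cells, against 43.1, 32.3 and 55.7 RPKM in controls at 24 h. The 48-h values were 14.5, 19.7 and 21.1 RPKM in BaP-treated cells, against 66.5, 56.4 and 25.2 RPKM in controls. Its log2 fold changes were -1.15 ± 0.27 and -1.28 ± 0.38, and the spread at 48 h came mainly from DMSO library 3. *rhaR* (rhamnose use, also described as a possible pseudogene) averaged 6.32 ± 1.1 RPKM with BaP and 16.2 ± 2.65 RPKM with DMSO at 48 h, and *amdR* (acetamide and lactam use) averaged 3.68 ± 0.564 RPKM with BaP and 10.4 ± 4.38 RPKM with DMSO. Their log2 fold changes were -1.3 and -1.03 at 24 h, and -1.23 and -1.21 at 48 h. *galR*, the regulator of galactose genes, was listed at 48 h with 0.0575 to 0.21 RPKM in BaP libraries and 0.505 to 0.796 RPKM in controls, and its log2 fold change of -0.55 did not pass.

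**Figure D4:**
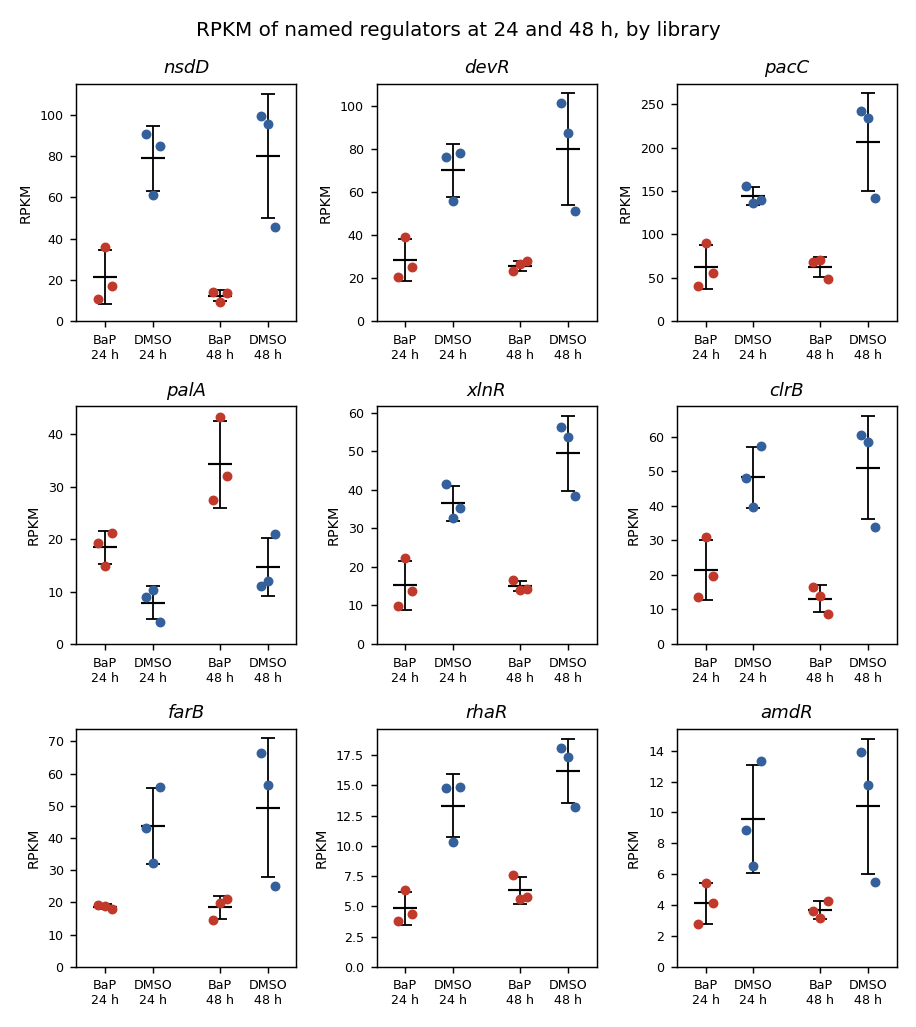
RPKM (vertical axes, from 0) of *nsdD*, *devR*, *pacC*, *palA*, *xlnR*, *clrB*, *farB*, *rhaR* and *amdR* in each BaP library (red) and control library (blue) at 24 and 48 h, with mean and SD as black lines (n = 3 each). Only *palA* is higher in BaP-treated cells. In the other panels each BaP library lies below each control at the same time point. The groups were without overlap in 93.7% of all genes listed at 24 h and 99.7% at 48 h.

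Genes under these regulators, from the same unchecked list, were present in smaller numbers. For *xlnR*, 5 target genes were listed at 24 h and 3 fell (*xlnA*, *xyrA* and *axhA*), and 3 were listed at 48 h and 2 fell (*xlnA* and *xyrA*). At 24 h *xlnA*, a xylanase gene, averaged 7.04 ± 3.43 RPKM with BaP and 21 ± 4.27 RPKM with DMSO, and *xyrA*, a reductase gene, averaged 25.4 ± 7.89 RPKM with BaP and 57.9 ± 14.7 RPKM with DMSO (SD, n = 3 each). None of the listed *xlnR* targets was higher in BaP-treated cells, and of all listed genes 32.6% fell at 24 h and 43% at 48 h. For *amdR*, the acetamidase gene *amdS* had a log2 fold change of -1.43 at 24 h. *amyR*, the starch regulator, whose description did not contain the words and which is not among the 92, fell with log2 fold changes of -1.70 at 24 h and -2.36 at 48 h. Of its target genes in the list, 3 of 5 listed fell at 24 h and none rose, while at 48 h 5 of 8 fell and 2 rose (*amyD*, 1.72, and *agdG*, 1.03). For *mdpE*, *mdpC* rose with a log2 fold change of 1.02 at 24 h, when *mdpE* itself was not listed.

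The C2H2 gene *aslA*, which acts in vacuolar potassium storage, was the most abundant transcription factor gene in controls at 48 h. It had 169.6, 132 and 124 RPKM in BaP-treated cells, against 389, 361 and 266 RPKM in controls, a log2 fold change of -1.24 ± 0.31 and an adjusted p of 0.00333. Next in the order of control levels at 48 h were *AN2020* and *pacC*, with 220.3, 257 and 195 and 243, 234 and 142 RPKM in the 3 controls, which overlapped. *AN2020*, a predicted zinc-binding factor, had 118, 119 and 84 RPKM in the BaP libraries and a log2 fold change of -1.07. At 24 h the highest control level was that of *AN8636*, and its controls ranged widely. It had 779.9, 533 and 624 RPKM in BaP-treated cells, against 212, 528 and 93.8 RPKM in controls, and its log2 fold change of 1.54 ± 0.58 passed the threshold in 1 of the 6 fits with a library left out.

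Among genes known only from predicted domains, 5 of 36 rose and 15 fell at 24 h, and 5 of 31 rose and 21 fell at 48 h. Among all listed genes 41.5% rose and 32.6% fell at 24 h, and 40.9% were risers and 43% fallers at 48 h. *AN6858* had the largest fall of any transcription factor gene at 24 h, with 2.66, 3.09 and 2.48 RPKM in BaP-treated cells, against 17.8, 8.47 and 32.3 RPKM in controls and a log2 fold change of -2.28 ± 0.44, after its fall at 6 h. It was not listed at 48 h. *AN6747* fell at both later times, with 3.04, 6.01 and 4.05 RPKM in BaP-treated cells, against 23.3, 13.4 and 20.1 RPKM in controls at 24 h. The 48-h values were 3.9, 1.83 and 2.48 RPKM in BaP-treated cells, against 17.4, 16.7 and 8.49 RPKM in controls. Its log2 fold changes were -1.9 ± 0.32 and -2.0 ± 0.36. The BaP libraries were low at both times and did not reach the lowest control. *AN8079* had 11.8, 13.6 and 13.2 RPKM in BaP-treated cells, against 63.4, 57.8 and 33.9 RPKM in controls at 48 h, a log2 fold change of -1.88 ± 0.33. *AN6889*, annotated only through orthologs, had 10.9, 8.29 and 5.69 RPKM in BaP-treated cells, against 42.2, 37.3 and 26.4 RPKM in controls at 48 h, a log2 fold change of -1.98 ± 0.33. *AN7508* and *AN7867* had log2 fold changes of -1.1 and -0.94 at 24 h and of -1.78 and -1.71 at 48 h, and *AN7867* passed the threshold at 48 h alone. *AN10059*, a zinc cluster gene whose description notes lower RNA with nitrate, averaged 26.6 ± 6.5 RPKM with BaP and 76.1 ± 15.1 RPKM with DMSO at 24 h. All 6 named zinc cluster genes listed at 24 h fell. At 48 h 9 were listed, of which 5 fell and 1 rose (*AN2367*), with the shares of all listed genes as given for the 2 times.

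Fewer genes rose at 24 and 48 h, and several of them were the same at both. *AN5259*, with predicted domains only, had 13.1, 19.8 and 19.7 RPKM in BaP-treated cells, against 2.62, 4.1 and 7.24 RPKM in controls at 48 h, the largest rise at that time with a log2 fold change of 1.77 ± 0.36, and averaged 15.7 ± 4.15 RPKM with BaP and 5.15 ± 0.897 RPKM with DMSO at 24 h. *AN2725* had log2 fold changes of 1.28 ± 0.30 at 24 h and 1.4 ± 0.35 at 48 h. *AN3506*, with a predicted role in secondary metabolism, was the one gene that rose at all 3 times. It had 14, 19.3 and 15.2 RPKM in BaP-treated cells, against 6.82, 7.07 and 6.99 RPKM in controls at 6 h. At 24 h it had 18.8, 12.4 and 18.7 RPKM in BaP-treated cells, against 4.95, 6.14 and 5.41 RPKM in controls. At 48 h it had 13.8, 19 and 20.8 RPKM in BaP-treated cells, against 4.06, 5.09 and 9.01 RPKM in controls. Its log2 fold changes were 1.1 ± 0.16, 1.42 ± 0.26 and 1.46 ± 0.34, and its level in the BaP libraries stayed between 12.4 and 20.8 RPKM. *AN10151*, the possible pseudogene, was the other gene listed at all 3 times, with log2 fold changes of -1.07, -1.01 and -0.88, the last not past the threshold. *AN3768* had the largest rise at 24 h, with 102, 80.3 and 88.7 RPKM in BaP-treated cells, against 26.6, 57.3 and 16.6 RPKM in controls and a log2 fold change of 1.57 ± 0.43. *AN3433* averaged 50.4 ± 14.2 RPKM with BaP and 21.9 ± 10.5 RPKM with DMSO at 24 h, with a log2 fold change of 1.25.

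At 48 h alone the risers past the threshold were *AN0312*, *AN8894*, *AN2367* and *AN11169*. *AN0312*, whose orthologs bind the core element of RNA polymerase I promoters, which drive ribosomal RNA synthesis, had 13.6, 19.2 and 28.7 RPKM in BaP-treated cells, against 6.85, 4.88 and 4.8 RPKM in controls and a log2 fold change of 1.68 ± 0.34 (adjusted p 0.0016). *AN4949*, whose orthologs belong to the RNA polymerase III machinery, had log2 fold changes of -0.96 at 24 h and -0.94 at 48 h, both inside the limit. *AN8894* averaged 12.4 ± 1.2 RPKM with BaP and 4.72 ± 1.23 RPKM with DMSO, and *AN11169* averaged 21.4 ± 0.932 RPKM with BaP and 10.0 ± 5.15 RPKM with DMSO. *AN8590*, listed at 6 and 48 h, had log2 fold changes of 0.99 and 1.18, and 2 of its 3 BaP libraries lay above all controls at 48 h. Of the 8 genes with a predicted role in secondary metabolism only, 2 of 3 listed at 6 h rose, 1 of 7 rose and 1 fell at 24 h, and 1 of 4 rose and 2 fell at 48 h. The counts are small, and of all listed genes 63.6%, 41.5% and 40.9% were risers and 10.4%, 32.6% and 43% fallers. The falls were *AN6430* at 24 h (-1.05) and *AN7073* and *AN8509* at 48 h (-1.44 and -1.26).

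Several of the genes stood next to other listed genes in the RefSeq gene order, in which 91 of the 92 were placed. *AN7073*, described as coregulated with the polyketide synthase gene *pkgA*, was flanked by *AN7074* and *AN7072*, whose 48-h log2 fold changes were -1.38 and -0.92. *AN7867* lay beside *AN7866* and 3 places from *bxlD*, a xylosidase gene, whose 48-h log2 fold changes were -1.77 and -2.26. Its other near neighbour *bglJ*, a glucosidase gene, had one of -1.07. *clrB* was directly beside *mndB*, a mannosidase gene, whose log2 fold change was -1.29 at 24 h and -1.15 at 48 h. *AN10151* adjoined *AN10152*, with -1.28, -1.24 and -1.10 at 6, 24 and 48 h. *AN8590* was 2 places from *AN8592*, with 2.22, 2.48 and 2.62. Neighbours did not always share a direction. *AN2367* adjoined *AN2366*, with -2.47 at 48 h, and *palA* adjoined *AN4352*, with -1.36 at 24 h and -1.10 at 48 h. *AN3768* and *AN3769*, both transcription factor genes 2 places apart, had log2 fold changes of 1.57 and -0.5 at 24 h. Only listed genes could be seen, so the share of neighbours that moved was not computed.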

How the data were processed

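RNA-seq of 18 libraries was analysed, 3 for each treatment (BaP, DMSO) and time point (6, 24 and 48 h). The 3 samples taken at the start of treatment were not used here. The submitters' processing notes name FastQC, Subread, featureCounts, limma and Cufflinks. Versions, the genome build and strand settings are not given in the sources used here. The authors deposited 1 table per time point, holding only genes they called differentially expressed (703, 1503 and 1529 genes), with RPKM per library; RPKM was inferred from the values. The deposited tables also hold the authors' fold changes, average expression, p-values and adjusted p-values, which were not used.

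RPKM values were tested on a log2(RPKM + 1) scale with limma 3.58.1 (R 4.3.3), separately within each table, with Benjamini-Hochberg adjustment over all its genes. Differences between time points used interaction contrasts over genes listed in both tables, although the tables may have been normalised separately. Whole reads could be worked out from the RPKM of every listed gene (within 0.02 reads), but 1097 of 1134 genes in several tables gave the same length in each, so some recovered reads may be wrong. Reads and library sizes were used for depth and for a count-based alternative (limma voom). The fits were also run on simulated reads, in which most genes were unchanged and libraries had an even spread. That setting differs from these tables of genes already called, so it says little about how reliable the calls are. Columns were assigned to groups by name, and libraries are numbered in column order. Genes were named by rule: genes listed at all 3 time points, the 8 largest rises and 8 largest falls past the threshold at each time point, genes in the list of known regulators, and up to 3 target genes of each; others were chosen after their values were seen. The regulator and target lists came from general knowledge and were not checked against a database. Transcription factor genes, classes and lists were chosen with earlier results of these data known. Sequences were not used here.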

Additional observations from a re-analysis of the deposited data

How the results depend on the processing

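The tables hold only genes already called, RPKM + 1 shrinks the differences of low genes, and 3 libraries a group give no more than 6 values a gene; an exact permutation test of 3 against 3 cannot go below 0.1. Direction was kept in all 566 recomputed values of the named genes, but this was nearly fixed beforehand. The groups did not overlap in nearly all of these genes, so leaving out a library could not turn their sign. The 1 RPKM filter leaves a gene's own fold change as it was. Of the 566 values, 466 stayed on the same side of the threshold, 82 dropped below it and 18 rose past it. Of those 82, 78 were at 24 h with a library left out. With a pseudocount of 0.1, 22 genes passed at 6 h (16 up, 6 down) and 58 at 24 h (13 up, 45 down), against 13 and 38 with a pseudocount of 1. The voom test gave 23 at 6 h (16 up, 7 down) and 61 at 24 h (14 up, 47 down), and without a fold limit 24 passed at 6 h (16 up, 8 down). At an adjusted p under 0.01 in limma, 0 passed at 24 h, where 54 had an unadjusted p under 0.05. Leaving out 1 library gave 11 to 16 genes at 6 h, 0 to 48 at 24 h and 38 to 52 at 48 h, with 0 at 24 h without BaP library 1, BaP library 3 or DMSO library 1. For differences between time points, leaving out 1 library gave 0 genes for 24 h against 6 h and for 48 h against 24 h, and 0 to 1 for 48 h against 6 h. The 1 came without DMSO library 3 of 48 h (*AN3506*, adjusted p 0.0488). The median log2 fold change of all listed genes moved with the pseudocount of 0.1 to 1.24, -0.81 and -1.05 at 6, 24 and 48 h, against 1.13, -0.19 and -0.56, and that of the transcription factor genes to 1.18, -1.22 and -1.28, while 76.1%, 49.8% and 49.4% stayed on the higher side. The voom medians were 1.26, -0.99 and -1.06 for all listed genes and 1.23, -1.24 and -1.30 for the transcription factor genes. With genes under 1 RPKM left out, the all-gene median turned to 0.46 at 24 h and the other was -1.03. The cause of these changes was not tested. No paired analysis was possible because the table columns carry no replicate numbers, so the planned fit with a replicate block was not run.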

Other observations

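Of the transcription factor genes known from predicted domains or orthologs, 11 more fell past the threshold at both 24 and 48 h. The share of all listed genes that fell past it at both times was not worked out. At each time taken alone it was 32.6% (24 h) and 43% (48 h). The 11 genes were *AN0026*, *AN5924*, *AN5775*, *AN3868*, *AN7919*, *AN5870*, *AN0658*, *AN5052*, *AN8473*, *AN4123* and *AN0507*. At 48 h their log2 fold changes lay between -1.02 (*AN3868*) and -1.47 (*AN0658*). *AN5775*, whose description notes higher RNA under hypoxia, had 18.6, 29.6 and 20.8 RPKM in BaP-treated cells, against 52.6, 49.4 and 62.3 RPKM in controls at 24 h and 34.2, 21.5 and 18.8 RPKM in BaP-treated cells, against 57.2, 53 and 42.2 RPKM in controls at 48 h. *AN8473* and *AN8509* were weak in BaP-treated cells at 48 h, with 0.219, 0.193 and 0.36 RPKM and 0.117, 0.103 and 0.385 RPKM in the BaP libraries and 3.22, 2.63 and 0.934 RPKM and 2.19, 2.69 and 0.998 RPKM in the controls. *AN10120* had a log2 fold change of -0.93 at 24 h, inside the limit, and fell at 48 h (-1.18).

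Listed at 48 h alone and past the threshold were *AN10910*, *AN8655*, *AN0680*, *AN5849*, *AN3120*, *AN8298* and *AN9458*, which fell, from -1.28 (*AN10910*) and -1.26 (*AN8655*) to -1.02 (*AN9458*) on the log2 scale. At 24 h alone *AN7332* fell (-1.07). The rest had differences inside the limit on the log2(RPKM + 1) scale, which shrinks the differences of low genes. They were *AN8125*, *AN8666* and *AN8735* at 6 h. At 24 h they were *AN11165*, *AN4626*, *AN6832*, *AN2615*, *AN1829* and *AN8447* on the lower side and *AN1077*, *AN6788*, *AN8918* and *AN10294* on the higher side. At 48 h they were *AN7592*, *AN1183* and *AN7921*, and at 24 and 48 h *AN7061*, *AN0585*, *AN7189* and *AN11818*.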
